A study of Mus musculus with 6 samples.

Results

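Splicing factors are the proteins that cut introns out of pre-mRNA, and 59 of their genes are described here in myeloid cells sorted from mouse gliomas. The genes were taken by symbol from the deposited count table, which held 23107 genes. Of the 59, 58 were found under the current symbol and 1, Pnisr, under the older symbol Sfrs18. They fall into 15 genes of SR and SR-related proteins, 15 hnRNP genes, 18 genes of core spliceosome proteins and 11 genes of associated factors. The family was chosen by its fold changes between the same mIDH1 and wtIDH1 libraries. Its members were taken by gene family, but were proposed with results of this comparison in view. Fold changes and counts of members therefore describe these genes and are not independent evidence about the family. All 59 passed the filter on low counts.

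The mIDH1 libraries (3) came from tumours with mutant IDH1 and were set against libraries from tumours with wild-type IDH1 (wtIDH1, 3 libraries). All 6 were made from CD11b+ Gr-1+ cells of C57BL/6 mice, sorted after Percoll enrichment of dissociated tumour. IDH1 is the cytosolic isocitrate dehydrogenase, and the mutant enzyme of gliomas makes 2-hydroxyglutarate. The genotype is that of the tumour, and the labels give no alteration of the sorted cells, no age of the mice, no method of tumour induction and no pooling. The labels also do not say whether the 3 replicates of a group came from separate mice, so the p-values speak of the spread over these samples, which may be technical.

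The spliceosome is assembled anew on each intron. The U1 snRNP pairs with the 5′ splice site, SF1 and the U2AF proteins mark the branch point and the 3′ end of the intron, the U2 snRNP with its SF3A and SF3B proteins then takes the branch point, and the U4/U6.U5 tri-snRNP brings in the catalytic parts. SR proteins, which carry a domain rich in arginine and serine, bind exons and favour their inclusion, while hnRNPs coat nascent RNA and often act against nearby splice sites. Many SR and hnRNP genes limit their own level by splicing in a short exon with a stop codon, and the resulting transcripts are degraded. Kinases of the CLK and SRPK families phosphorylate SR proteins and set where in the nucleus they lie. A count per gene adds all such isoforms together, so the values below are gene totals and say nothing of which isoform was made.

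Library totals were 35093265, 31605062 and 19728205 counts in mIDH1 and 21538972, 27750515 and 20502715 counts in wtIDH1. Levels are counts-per-million (CPM) scaled by TMM, and a level at which 3 counts would be seen lay between 0.0861 and 0.151 CPM, far below every member (counting error only). Of the defining antigens of the sort, Itgam, which encodes CD11b, was at 2224, 1832 and 2161 CPM in mIDH1 and 1779.8, 1843 and 2058 CPM in wtIDH1, and Ly6c2, an antigen bound by Gr-1 antibodies, was at 46.9, 54.3 and 33.8 CPM in mIDH1 and 120.2, 215 and 121 CPM in wtIDH1. Ly6c2 fell (log2 fold change -1.76 ± 0.26 SE, adjusted p = 0.0018), and Ly6g was not analysed here. Csf3r, the receptor of the granulocyte growth factor G-CSF, fell as well, at 157, 176 and 110.1 CPM in mIDH1 and 248, 259.8 and 273 CPM in wtIDH1 (log2 fold change -0.82 ± 0.19 SE, adjusted p = 0.021), and passed in 3 of 6 fits with a library left out. Of the other 6 myeloid markers none passed. Csf1r, the macrophage growth factor receptor, was between 1418 and 1967 CPM in all libraries. The neutrophil alarmins S100a8 and S100a9 were higher in each mIDH1 library without passing, S100a8 at 11.3, 10.1 and 9.37 CPM in mIDH1 and 2.54, 3.19 and 7.21 CPM in wtIDH1 (adjusted p = 0.191) and S100a9 at 43.9, 56.0 and 46.4 CPM in mIDH1 and 23.6, 26.5 and 43.6 CPM in wtIDH1 (adjusted p = 0.175). Summed levels of 6 T and NK cell markers were 184 to 429 CPM in mIDH1 and 114 to 282 CPM in wtIDH1, and those of 4 B cell markers 5.43 to 12.03 CPM in mIDH1 and 2.72 to 4.48 CPM in wtIDH1. Microglia markers (4 genes) summed to 151 to 352 CPM in mIDH1 and 156 to 240.1 CPM in wtIDH1, and glioma and neural markers (7 genes) to 11.0 to 19.7 CPM in mIDH1 and 11.0 to 11.6 CPM in wtIDH1. Among the markers of other cell types 1 passed: Sox2, a transcription factor of glioma and neural stem cells, rose, at 0.546, 7.30 and 4.19 CPM in mIDH1 and 0, 0.0759 and 0.151 CPM in wtIDH1 (adjusted p = 0.037), and it passed in 7 of 16 other settings. DESeq2 called 2 of the glioma and neural markers and 1 microglia marker higher. Endothelial markers (4 genes) summed to 62.4 to 98.6 CPM in mIDH1 and 95.9 to 131 CPM in wtIDH1. No marker of these lists was at 0 in all 6 libraries, and the part of these cells in the results was not tested. In bulk libraries, fewer cells of a type and less RNA per cell cannot be told apart.

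Of the 59 splicing factor genes, 19 fell in mIDH1 and none rose at an adjusted p under 0.05 (edgeR, adjusted over all genes tested). On the higher side, DESeq2 and limma voom also called 0, and 2 members had an unadjusted p under 0.05 by edgeR. Of all 12950 genes tested, 5.39% were lower and 2.78% higher by the same rule, 8.17% in all, and of the 6221 genes at or above the lowest mean level of a member, 10.4% were lower. Lower genes made up 66.0% of all calls, and 55.0% with library totals as the only scaling. The median log2 fold change was -0.45 over the 59 and 0.06 over all genes tested (0.13 for all genes with totals alone, 0.12 with upper quartiles). In 33 members every mIDH1 library lay below every wtIDH1 library and in 2 every mIDH1 library lay above, whereas the groups were apart in these ways in 14.9% and 14% of all genes tested. Among the 6221 genes at or above the lowest member level, 22.8% were apart on the lower side. Summed over the 59 genes, levels were 11271, 10795 and 11261 CPM in mIDH1 and 14318, 14605 and 15627 CPM in wtIDH1. The 19 called genes, which were picked for being lower in these libraries, summed to 3449 to 3594 CPM in mIDH1 and 6070.1 to 6932 CPM in wtIDH1, and the other 40 to 7292 to 7822 CPM in mIDH1 and 7997 to 8695 CPM in wtIDH1.

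**Figure D1:**
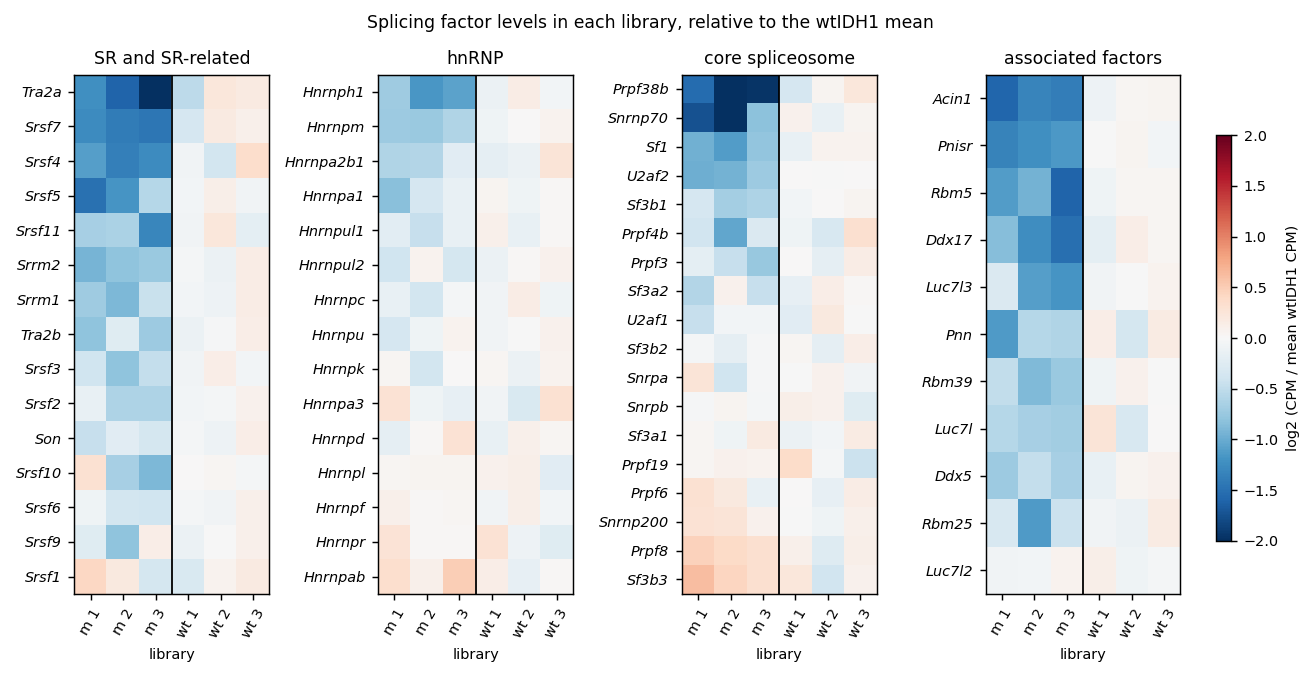
Level of each of the 59 splicing factor genes (rows) in each library (columns; m, mIDH1 replicates 1 to 3; wt, wtIDH1 replicates 1 to 3), as log2 of its CPM over the mean CPM of the wtIDH1 libraries, sorted by fold change within a class. The colour scale ends at 2 in either direction. Blue mIDH1 columns run through the upper rows of each class, and the lower rows of the hnRNP and core spliceosome panels stay pale or turn red.

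SR and SR-related genes had negative log2 fold changes in 14 of 15 cases, and 7 of the 15 passed the threshold: Tra2a, Srsf7, Srsf4, Srsf5, Srsf11, Srrm2 and Srrm1. That is 46.7% of the class, against 5.39% of all genes tested and 10.4% of those at or above the lowest member level. Over all genes tested, 6037 log2 fold changes were negative and 6913 positive. The median log2 fold change of the 15 was -0.57, and their levels summed to 2948 to 3028 CPM in mIDH1 and 4467 to 5046 CPM in wtIDH1. Tra2a and Tra2b are relatives of the fly sex-determination factor Transformer-2 and bind GA-rich exonic enhancers. Tra2a (chromosome 6, 49243924 to 49264033 in mm10) was at 52.6, 40.4 and 29.3 CPM in the mIDH1 libraries, against 86.0, 145 and 139 CPM in the wtIDH1 libraries. All mIDH1 values were below all wtIDH1 values, although wtIDH1 replicate 1 was closer to mIDH1 than its fellow libraries (log2 fold change -1.59 ± 0.26 SE, adjusted p = 0.0032). Its paralog Tra2b was at 75.1, 111 and 79.4 CPM in the mIDH1 libraries, against 122, 129 and 143 CPM in the wtIDH1 libraries. The groups did not overlap there either, but the difference did not pass (log2 fold change -0.57 ± 0.19 SE, adjusted p = 0.092).

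Srsf7, an SR protein with a zinc knuckle that also takes part in mRNA export, was measured at 47.7, 43.0 and 41.8 CPM in the mIDH1 libraries, against 89.8, 129 and 122 CPM in the wtIDH1 libraries (chromosome 17, 80200080 to 80207307). The 3 mIDH1 libraries lay close together and all below the lowest wtIDH1 library (log2 fold change -1.36 ± 0.20 SE, adjusted p = 0.0017). Srsf3, the smallest SR protein and the closest relative of Srsf7, was at 109, 81.9 and 103 CPM in the mIDH1 libraries, against 136, 157 and 138 CPM in the wtIDH1 libraries. It too was lower in each mIDH1 library, by less (log2 fold change -0.55 ± 0.18 SE, adjusted p = 0.075), and it passed by DESeq2 alone (adjusted p = 0.049). Srsf4, an SR protein with a long serine-rich tail, was at 36.5, 30.4 and 32.6 CPM in the mIDH1 libraries, against 74.6, 60.4 and 99.2 CPM in the wtIDH1 libraries (log2 fold change -1.23 ± 0.23 SE, adjusted p = 0.0068). The groups did not overlap. In the annotation 43.0% of the exonic bases of Srsf4 also lie in Gm12992 on the other strand, and reads of the pair cannot be told apart without strand.

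Srsf5, an SR protein whose gene responds to insulin and growth factors, was at 102, 126 and 192 CPM in the mIDH1 libraries, against 277, 311 and 272 CPM in the wtIDH1 libraries. The mIDH1 libraries were spread, with replicate 3 the highest, and all lay below wtIDH1 (log2 fold change -1.03 ± 0.22 SE, adjusted p = 0.014). Srsf6, closely related to Srsf5, was at 123, 101 and 98.5 CPM in the mIDH1 libraries, against 126, 124 and 139.8 CPM in the wtIDH1 libraries, a difference that did not pass (log2 fold change -0.27 ± 0.17 SE, adjusted p = 0.385). For Srsf11, an SR-related protein that interacts with U2AF65, the values were 99.8, 101 and 64.0 CPM in the mIDH1 libraries, against 149.8, 185 and 137 CPM in the wtIDH1 libraries (log2 fold change -0.83 ± 0.21 SE, adjusted p = 0.030), again with no overlap. Srsf1 and Srsf2 are the founding members of the family, known as ASF/SF2 and SC35. Srsf1 was at 119.6, 103 and 70.4 CPM in the mIDH1 libraries, against 72.4, 94.5 and 102 CPM in the wtIDH1 libraries, with overlapping groups and the only positive log2 fold change among the 15, negative without mIDH1 replicate 1 or wtIDH1 replicate 1 (log2 fold change 0.12 ± 0.22 SE, adjusted p = 0.806). Srsf2 was at 202, 146 and 147 CPM in the mIDH1 libraries, against 217, 219 and 238 CPM in the wtIDH1 libraries, and it passed only without mIDH1 replicate 1 (log2 fold change -0.45 ± 0.18 SE, adjusted p = 0.153; adjusted p = 0.048 without that library). Mfsd11 and Mettl23 overlap 25.3% of the exonic bases of Srsf2 on the other strand. Srsf10, which represses splicing when dephosphorylated after heat shock, had the lowest level per kilobase of merged exons in the class, and its values of 90.2, 46.1 and 39.2 CPM in mIDH1 and 73.6, 75.0 and 70.8 CPM in wtIDH1 overlapped because of mIDH1 replicate 1 alone (log2 fold change -0.32 ± 0.28 SE, adjusted p = 0.557). Without that library its adjusted p was 0.045. Srsf9 had a log2 fold change of -0.25, adjusted p = 0.621.

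The large scaffold proteins of nuclear speckles are encoded by Srrm1, Srrm2 and Son. Srrm2, whose product forms the core of speckles and had the highest level per kilobase of the class, was at 918, 1007 and 1055 CPM in the mIDH1 libraries, against 1709, 1622 and 1941 CPM in the wtIDH1 libraries. The groups were well apart (log2 fold change -0.82 ± 0.16 SE, adjusted p = 0.0082). Srrm1, which bridges SR proteins bound to exons and the snRNPs, had a log2 fold change of -0.67 (adjusted p = 0.033). Son, the other speckle scaffold, was at 758, 884 and 815 CPM in the mIDH1 libraries, against 1016, 966 and 1137 CPM in the wtIDH1 libraries. It was lower in each mIDH1 library, and the test did not pass (log2 fold change -0.34 ± 0.16 SE, adjusted p = 0.219).

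The number of SR and SR-related genes that fell was 4 without mIDH1 replicate 2, 4 without wtIDH1 replicate 2, 3 without wtIDH1 replicate 3 and 5 to 8 without any of the other libraries. Srsf7 and Tra2a passed with any 1 library left out, with adjusted p up to 0.019 and 0.029. Srsf4 had adjusted p = 0.051 and Srrm2 adjusted p = 0.052 without wtIDH1 replicate 3. Srsf5 had adjusted p = 0.064 without mIDH1 replicate 2 and adjusted p = 0.085 without wtIDH1 replicate 2. Srsf11 and Srrm1 each passed in 1 of the 6 such fits by edgeR, with adjusted p up to 0.149 and 0.146.

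**Figure D2:**
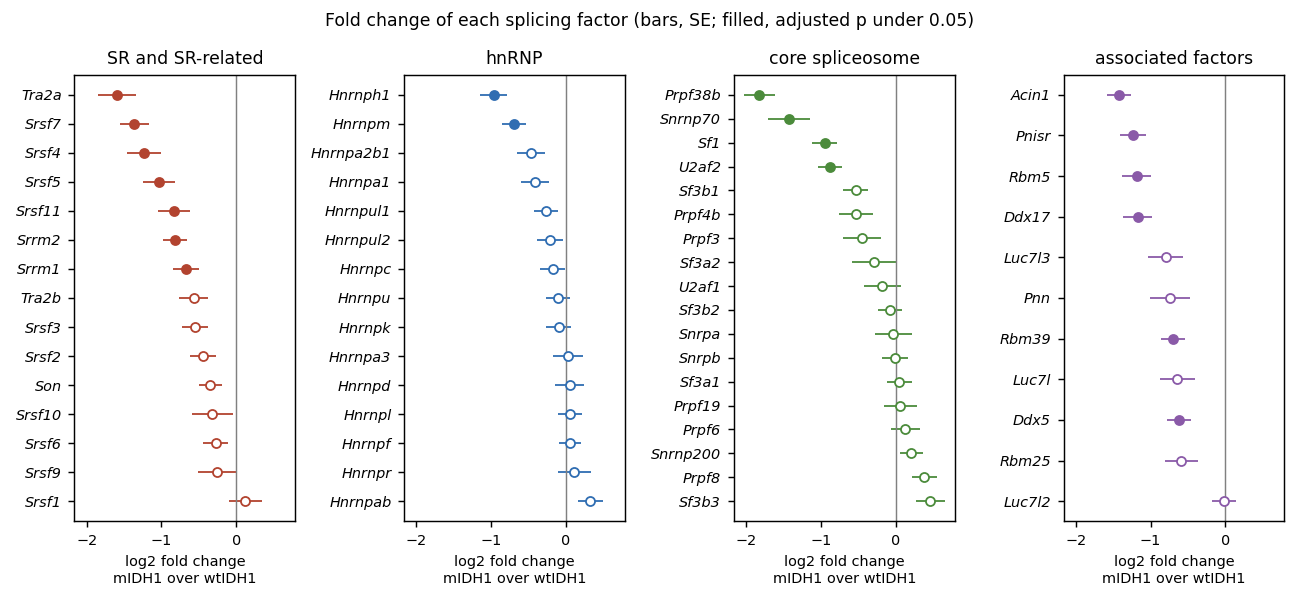
Log2 fold change of each splicing factor gene, mIDH1 over wtIDH1, with its approximate standard error, in 4 panels by class. Filled points have an adjusted p under 0.05 by edgeR: 7 of 15 SR and SR-related genes, 2 of 15 hnRNP genes, 4 of 18 core spliceosome genes and 6 of 11 associated factors, all on the lower side.

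Among hnRNPs 2 of 15 genes fell, Hnrnph1 and Hnrnpm, and the median log2 fold change of the 15 was -0.11, with 9 negative and 6 positive values. That is 13.3% of the class, against 5.39% of all genes tested and 10.4% of the 6221 genes at or above the lowest member level. The share is thus near that of the 6221 genes, which were set by a lowest level and not matched to hnRNP levels. Levels of the 15 hnRNPs summed to 3474 to 3891 CPM in mIDH1 and 3926 to 4079 CPM in wtIDH1. Hnrnph1, which binds G-runs in exons and introns, was at 89.2, 65.1 and 69.5 CPM in the mIDH1 libraries, against 135, 163 and 141 CPM in the wtIDH1 libraries (chromosome 11, 50376990 to 50386528). Each mIDH1 library was well below the lowest wtIDH1 library (log2 fold change -0.97 ± 0.18 SE, adjusted p = 0.0078). Its close relative Hnrnpf, which binds the same G-runs and had the highest level per kilobase of all 59 genes, was at 918, 868 and 875 CPM in the mIDH1 libraries, against 813, 924 and 827 CPM in the wtIDH1 libraries. These groups overlapped (log2 fold change 0.05 ± 0.15 SE, adjusted p = 0.885), and genes on the other strand cover 26.5% of the exonic bases of Hnrnpf. Hnrnpm, which binds GU-rich RNA, was at 78.8, 77.7 and 85.4 CPM in the mIDH1 libraries, against 122, 131 and 137 CPM in the wtIDH1 libraries, 2 narrow groups that did not overlap (log2 fold change -0.69 ± 0.16 SE, adjusted p = 0.022).

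The abundant hnRNPs of the A/B, C, K and U types did not pass. Hnrnpa1, the classical antagonist of SR proteins, was at 99.7, 140.4 and 159.6 CPM in the mIDH1 libraries, against 185, 167 and 179.9 CPM in the wtIDH1 libraries. Its groups were apart, with mIDH1 replicate 3 close to wtIDH1 replicate 2 (log2 fold change -0.41 ± 0.19 SE, adjusted p = 0.226). Hnrnpa2b1, which also sorts RNAs for transport, was at 181, 183 and 236 CPM in the mIDH1 libraries, against 243, 255 and 330.1 CPM in the wtIDH1 libraries, again lower in each mIDH1 library (log2 fold change -0.46 ± 0.18 SE, adjusted p = 0.152). Hnrnpc, which binds U-tracts, was at 225, 192 and 242 CPM in mIDH1 and 235, 275 and 234 CPM in wtIDH1. Hnrnpk, which binds C-rich RNA, was at 596, 450.3 and 586 CPM in mIDH1 and 598, 535 and 615 CPM in wtIDH1. Hnrnpu, a nuclear matrix protein that binds long noncoding RNAs, was at 279.8, 335 and 372 CPM in mIDH1 and 336, 352 and 375 CPM in wtIDH1. Groups of these 3 genes overlapped, and their log2 fold changes were -0.18, -0.10 and -0.11 (adjusted p = 0.596, 0.797 and 0.772). Hnrnpr had the lowest level per kilobase of all members and a log2 fold change of 0.11, adjusted p = 0.824. Hnrnpab was the most positive of the class at 0.33 (adjusted p = 0.288), and Phykpl on the other strand covers 29.1% of its exonic bases. The remaining hnRNPs, Hnrnpa3, Hnrnpd, Hnrnpl, Hnrnpul1 and Hnrnpul2, had log2 fold changes from -0.27 to 0.05.

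Both hnRNP calls depended on single libraries: no hnRNP gene passed without wtIDH1 replicate 2, and 1 passed without mIDH1 replicate 2, wtIDH1 replicate 1 or wtIDH1 replicate 3. Hnrnph1 was at adjusted p = 0.055 without wtIDH1 replicate 2 and passed in every other setting tried. Hnrnpm passed in 11 of 16 other settings, with adjusted p up to 0.106. The gene March2 shares 14.7% of the exonic bases of Hnrnpm on the same strand.

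The core spliceosome genes split. Of 18, 4 fell, Prpf38b, Snrnp70, Sf1 and U2af2, and the median log2 fold change was -0.13, with 12 negative and 6 positive values. These 4 are 22.2% of the class, against 5.39% of all genes tested and 10.4% of those at or above the lowest member level. Summed levels of the 18 were 2505 to 2788 CPM in mIDH1 and 3065 to 3404 CPM in wtIDH1. Snrnp70 encodes the U1-70K protein of the U1 snRNP. Its levels were 28.7, 23.9 and 54.3 CPM in the mIDH1 libraries, against 102, 86.2 and 99.3 CPM in the wtIDH1 libraries. The mIDH1 replicate 3 library stood between its fellows and wtIDH1, and the groups did not overlap (log2 fold change -1.43 ± 0.28 SE, adjusted p = 0.0088). Snrpa, another protein of the same particle, was at 44.1, 27.7 and 36.0 CPM in mIDH1 and 36.3, 38.7 and 35.0 CPM in wtIDH1, with overlapping groups and a sign that turned positive with upper quartiles or totals alone (log2 fold change -0.03 ± 0.24 SE, adjusted p = 0.961). Snrpb, which encodes the SmB ring protein shared by the major snRNPs, had a log2 fold change of -0.0022, adjusted p = 0.996, which was positive in 8 of 16 other settings.

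At the 3′ end of introns, Sf1, which first recognises the branch point, was at 204, 182 and 229.8 CPM in the mIDH1 libraries, against 359, 418 and 415 CPM in the wtIDH1 libraries (log2 fold change -0.95 ± 0.17 SE, adjusted p = 0.0047), with no overlap. U2af2, which encodes the U2AF65 subunit bound to the polypyrimidine tract, was at 121, 123 and 145 CPM in the mIDH1 libraries, against 239.7, 237 and 239 CPM in the wtIDH1 libraries. The 3 wtIDH1 values were nearly the same, and the highest mIDH1 value was far below them (log2 fold change -0.88 ± 0.16 SE, adjusted p = 0.0062). U2af1, which encodes the U2AF35 partner that contacts the terminal AG, was at 25.5, 33.7 and 33.9 CPM in mIDH1 and 30.1, 40.2 and 35.0 CPM in wtIDH1, groups that overlapped (log2 fold change -0.18 ± 0.25 SE, adjusted p = 0.736).

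None of the 5 SF3A and SF3B members passed by edgeR, with 2 at an unadjusted p under 0.05. Sf3b1, the SF3B subunit that clamps the branch point and is often mutated in human myelodysplasia, was at 453, 354 and 371 CPM in the mIDH1 libraries, against 546, 572 and 589 CPM in the wtIDH1 libraries. It was lower in each mIDH1 library (log2 fold change -0.54 ± 0.16 SE, adjusted p = 0.062), and it passed by DESeq2 (adjusted p = 0.018), by limma voom (adjusted p = 0.039) and without mIDH1 replicate 1 (adjusted p = 0.038). Sf3b3 was the most positive of the 59 genes, at 165, 144 and 134 CPM in mIDH1 and 125, 82.6 and 114 CPM in wtIDH1, and the groups did not overlap (log2 fold change 0.47 ± 0.19 SE, adjusted p = 0.168). The values of Sf3a1, Sf3a2 and Sf3b2 were 0.05, -0.29 and -0.08 on the log2 fold change scale, none past the threshold.

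In the tri-snRNP and the proteins that activate the spliceosome, Prpf38b had the most negative value of all members. It encodes a protein related to PRPF38A, which acts when the spliceosome is activated, and it was at 81.9, 57.8 and 61.3 CPM in the mIDH1 libraries, against 188, 247 and 278 CPM in the wtIDH1 libraries (chromosome 3, 108902805 to 108911727). Even the lowest wtIDH1 library was well above the highest mIDH1 library (log2 fold change -1.83 ± 0.21 SE, adjusted p = 0.00033). Prpf8, the scaffold at the catalytic centre, had the highest level per kilobase of merged exons among the core genes and was at 530.3, 501 and 479 CPM in the mIDH1 libraries, against 415, 324 and 418 CPM in the wtIDH1 libraries. It was higher in each mIDH1 library without passing (log2 fold change 0.39 ± 0.17 SE, adjusted p = 0.186). Snrnp200, the helicase that unwinds U4 from U6, had a log2 fold change of 0.21, adjusted p = 0.479. Prpf3, a U4/U6 protein and the lowest of the core genes per kilobase of merged exons, had one of -0.45, adjusted p = 0.333. Prpf4b, the kinase of the tri-snRNP, had a log2 fold change of -0.53, Prpf6 of 0.13 and Prpf19, the ubiquitin ligase of the activated complex, of 0.06, and none of the 3 passed. All 4 core genes that fell passed with any 1 library left out and in every other setting, with adjusted p up to 0.044, for Snrnp70 without wtIDH1 replicate 3.

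**Figure D3:**
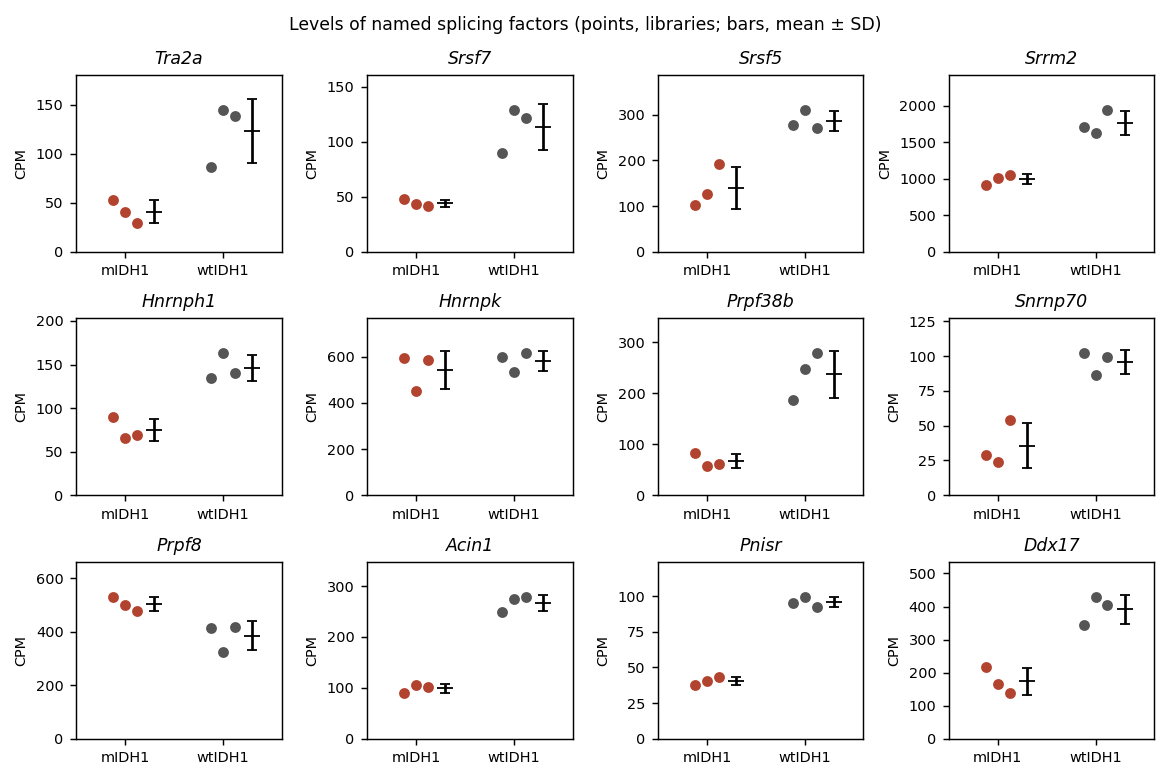
CPM (vertical axes, from 0) of 12 of the described splicing factor genes in mIDH1 (left) and wtIDH1 (right) libraries. Points are libraries, and bars are the mean ± SD of 3. Hnrnpk groups overlap, Prpf8 libraries are higher in mIDH1, and in the other 10 genes every mIDH1 point is below every wtIDH1 point.

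The associated factors had negative log2 fold changes in all 11 genes, from -1.43 to -0.02 with a median of -0.75, and 6 fell. The 6 are 54.5% of the class, against 5.39% of all genes tested and 10.4% of those at or above the lowest member level. Summed levels of the 11 were 1712 to 1816 CPM in mIDH1 and 2772 to 3098 CPM in wtIDH1. The sign of Luc7l2, the one nearest 0, was positive with upper quartiles or totals alone. Acin1, which encodes acinus, a component of the ASAP complex at exon junctions, was at 89.2, 106 and 103 CPM in the mIDH1 libraries, against 248, 274 and 278 CPM in the wtIDH1 libraries (chromosome 14, 54642161 to 54686931). Both groups were tight and far apart (log2 fold change -1.43 ± 0.16 SE, adjusted p = 0.00036). Pnisr, an SR-related protein that interacts with pinin, was at 37.8, 40.9 and 43.2 CPM in the mIDH1 libraries, against 95.1, 99.4 and 92.5 CPM in the wtIDH1 libraries, which again left a wide gap between the groups (log2 fold change -1.24 ± 0.18 SE, adjusted p = 0.0018). Pnn, which encodes pinin itself, was at 17.5, 25.8 and 25.3 CPM in mIDH1 and 42.2, 30.1 and 42.8 CPM in wtIDH1 (log2 fold change -0.75 ± 0.27 SE, adjusted p = 0.114). Its groups did not overlap, and it did not pass.

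Rbm5, a regulator of apoptosis genes' splicing, was at 63.5, 71.4 and 45.4 CPM in the mIDH1 libraries, against 128, 142 and 141 CPM in the wtIDH1 libraries (log2 fold change -1.19 ± 0.20 SE, adjusted p = 0.0036), and the groups did not overlap. Rbm39, a U2AF65-related factor that is the target of aryl sulfonamide degraders, was at 267, 204 and 224 CPM in the mIDH1 libraries, against 353, 399.8 and 375 CPM in the wtIDH1 libraries, also without overlap (log2 fold change -0.70 ± 0.17 SE, adjusted p = 0.023). Rbm25, which binds the exonic enhancers of Bcl2l1, had the lowest level per kilobase of merged exons in the class and a log2 fold change of -0.59, adjusted p = 0.133. The paralogous helicase genes Ddx5 and Ddx17 encode p68 and p72, which remodel RNA and also act as transcription cofactors. Ddx5 was at 742, 884 and 775 CPM in the mIDH1 libraries, against 1100.2, 1269 and 1308 CPM in the wtIDH1 libraries (log2 fold change -0.62 ± 0.16 SE, adjusted p = 0.034). Ddx17 was at 218, 165 and 138 CPM in the mIDH1 libraries, against 343, 429 and 404 CPM in the wtIDH1 libraries (log2 fold change -1.17 ± 0.19 SE, adjusted p = 0.0036). Both were lower in each mIDH1 library, with the larger change in Ddx17; the difference between the pair was not tested.

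The 3 Luc7-like genes encode U1 snRNP partners that shape the choice of 5′ splice site. Luc7l2, lost in some human myeloid neoplasms, was at 196, 197 and 215 CPM in the mIDH1 libraries, against 222, 192 and 200.2 CPM in the wtIDH1 libraries, and these overlapped (log2 fold change -0.02 ± 0.16 SE, adjusted p = 0.970). Gm26699 on the other strand covers 18.9% of the exonic bases of Luc7l2. Luc7l3 was at 73.9, 42.2 and 40.1 CPM in the mIDH1 libraries, against 86.8, 90.0 and 95.4 CPM in the wtIDH1 libraries, and it was not called by edgeR in the comparison of all libraries (log2 fold change -0.80 ± 0.24 SE, adjusted p = 0.058), though 6 of 16 other settings called it. Luc7l had a log2 fold change of -0.64, adjusted p = 0.113. The number of associated factors that fell, 6 with all libraries, was 4 when mIDH1 replicate 2 or a single wtIDH1 library was left out. Acin1, Pnisr, Rbm5 and Ddx17 passed in each of these fits, with adjusted p up to 0.030. Rbm39 passed in 2 and Ddx5 in 1 of 6 fits with a library left out, with adjusted p up to 0.114 and 0.145.

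Over all 4 classes, 10 genes passed with any 1 library left out: Srsf7, Tra2a, Prpf38b, Sf1, Snrnp70, U2af2, Rbm5, Ddx17, Acin1 and Pnisr. The count of members past the threshold was 12 without wtIDH1 replicate 2 or 3, 13 without mIDH1 replicate 2 and 14 to 21 without any 1 of the others. The count over all genes past the threshold moved as well, from 1058 of 12950 tested with all libraries. It was 334 of 13502 without wtIDH1 replicate 2 and 364 of 13673 without wtIDH1 replicate 3. It was 558 of 13380 without mIDH1 replicate 2 and 665 of 13643 without wtIDH1 replicate 1. The share of all genes that passed in every such fit is not given here, so the 10 genes stand without a background share.

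The annotated promoters of the member with the smallest p in each class are shown. Which starts were used in these cells was not measured, and RefSeq starts numbered 5 for Hnrnph1, 4 for Acin1 and 1 each for Srsf7 and Prpf38b. Each is the 200 bases before the most upstream RefSeq start (GRCm38.p6, the mm10 assembly), read 5′ to 3′ on the strand of the gene. The window of Srsf7 is chr17:80207306-80207505 on the minus strand, that of Hnrnph1 chr11:50376790-50376989 on the plus strand, that of Prpf38b chr3:108911730-108911929 on the minus strand and that of Acin1 chr14:54686966-54687165 on the minus strand. Capitals mark matches, on either strand, to GGGCGG (the GC box bound by Sp1), CCAAT (bound by NF-Y), CCGGAAG (an ETS site), TGACGTCA (the cyclic AMP response element), CACGTG (the E-box), TATAAA (the TATA box) or GAAANNGAA (the core of the interferon-stimulated response element).
Srsf7: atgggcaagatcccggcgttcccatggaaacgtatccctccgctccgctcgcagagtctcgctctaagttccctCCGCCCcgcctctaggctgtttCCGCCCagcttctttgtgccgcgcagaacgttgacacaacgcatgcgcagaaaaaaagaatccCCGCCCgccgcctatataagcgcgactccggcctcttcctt
Hnrnph1: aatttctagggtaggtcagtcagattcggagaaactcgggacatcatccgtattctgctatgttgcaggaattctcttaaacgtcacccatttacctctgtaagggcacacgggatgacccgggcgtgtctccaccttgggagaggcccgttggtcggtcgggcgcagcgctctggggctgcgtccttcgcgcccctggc
Prpf38b: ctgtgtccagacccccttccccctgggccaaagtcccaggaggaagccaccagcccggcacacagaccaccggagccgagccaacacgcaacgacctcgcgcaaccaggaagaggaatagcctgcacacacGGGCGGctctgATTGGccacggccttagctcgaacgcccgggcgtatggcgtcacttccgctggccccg
Acin1: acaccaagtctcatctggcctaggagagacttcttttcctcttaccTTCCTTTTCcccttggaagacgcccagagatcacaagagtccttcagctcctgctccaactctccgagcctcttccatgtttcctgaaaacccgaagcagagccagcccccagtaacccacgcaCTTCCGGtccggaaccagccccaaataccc
The Srsf7 window held 3 GC boxes, that of Prpf38b a GC box and a CCAAT box, that of Acin1 an ETS site and a core of the interferon-stimulated response element and that of Hnrnph1 none of these letters.

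Promoters were listed for 54 of the 59 members, 17 of the 19 that fell and 37 of the 40 that did not pass, and the 250 bases before the start were searched. GC boxes were in 11 of the 17 and 23 of the 37, against 33.0% of 27025 mouse promoters. CCAAT was in 8 of the 17 and 20 of the 37, against 34.5% of all, and the ETS site in 6 and 10, against 7.07%. A cyclic AMP response element was in 1 and 1, against 1.60% of all, an E-box in 0 and 3, against 6.04%, and a TATA box in 1 and 5, against 3507 of the 27025 promoters. The core of the interferon-stimulated response element was in 2 of the 17 and 0 of the 37, against 7.16% of all promoters. The median GC content was 60.8% in members that fell, 59.6% in those that did not pass and 52% in all promoters. The 27025 promoters were not restricted to expressed genes, whereas all members were expressed, so the 2 sets are unlike in more than gene family. These are matches of letters, and binding was not measured.

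Other features that the list did not use were read from the mm10 annotation (GENCODE vM21). The 19 genes that fell lay on 12 chromosomes and the other 40 on 17. A transcript annotated as a target of nonsense-mediated decay was listed for 15 of the 19 and 25 of the 40, and one with a retained intron for 16 of the 19 and 35 of the 40. The median number of annotated transcripts was 13 for genes that fell and 8 for those that did not pass. Across the 59 genes, Spearman's rho of the log2 fold change with the number of transcripts was -0.37, with the number of decay targets -0.32, with merged exon length -0.16 and with gene span -0.01. All 59 points come from the same 6 libraries, and these relations were not tested.

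Levels between genes were compared as CPM per kilobase of merged exons, averaged over the 6 libraries. Hnrnpf led at 286, followed by Ddx5 at 175, Srrm2 at 107, Hnrnpab at 102 and Hnrnpk at 87.1. Hnrnpr was the lowest at 2.13. The order depends in part on the length used. Per kilobase of the longest transcript, Hnrnpf at 363, Ddx5 at 282 and Hnrnpr at 2.21 kept their ranks, but Hnrnpk at 189.6 was above Srrm2 at 155 and Hnrnpab at 119.97. On that scale the lowest member was Luc7l at 8.12 among associated factors, Sf3a2 at 9.86 among core genes and Srsf1 at 17.5 among SR genes, and Sf3b2 at 86.1 was the highest of the core genes. By merged exons, Srsf2 was highest among the SR proteins proper at 66.0. The median by merged exons was 32.3 for hnRNPs, 22.2 for SR and SR-related genes, 22.1 for core genes and 9.81 for associated factors. Ddx5 stood at 139 CPM per kilobase in mIDH1 and 212 in wtIDH1, and Hnrnpf at 291 CPM per kilobase in mIDH1 and 280.4 in wtIDH1. Within a group, the SD over the 3 libraries was a median of 14.6% of the mean in mIDH1 and 9.37% in wtIDH1.

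Of the remaining splicing genes, 178 were listed by complex, and 168 of these were tested. In mIDH1 13 fell (7.74%) and 3 rose, with a median log2 fold change of -0.07. Of all genes tested 5.39% fell and 2.78% rose, and of the 6221 at or above the lowest member level 10.4% fell. By list, the share that fell was 31.25% of the other SR-related genes and 0 to 8.33% in the remaining lists of these 168. Other SR-related genes fell in 5 of 16 cases. Rsrc2, an RS-rich coiled-coil protein, was at 36.1, 29.2 and 33.3 CPM in the mIDH1 libraries, against 92.5, 88.2 and 87.7 CPM in the wtIDH1 libraries (log2 fold change -1.44 ± 0.19 SE, adjusted p = 0.00095), and Srek1 (-1.10), Nktr (-0.88), Scaf4 (-0.82) and Arglu1 (-1.33) fell too. Srsf12, a low SR protein gene, rose: it had 20, 87 and 22 counts in mIDH1 and 0 in each wtIDH1 library, which is at least 32.6-fold higher when 3 counts over the wtIDH1 group are taken as the limit. It passed in 5 of 15 other settings and in none with a library left out (adjusted p = 0.048, up to 0.187).

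Other U1, U2 and Sm genes fell in 2 of 27, Puf60 (-0.62), a partner of U2AF65, and U2af1l4 (-0.99), a relative of U2af1. Other tri-snRNP and activation genes fell in 2 of 53, the helicase genes Dhx16 (-1.16) and Dhx38 (-0.70), with a median of 0.01 over the 53. Of 10 minor spliceosome genes edgeR called 0, with 3 at an unadjusted p under 0.05 and 1 called by each of DESeq2 and limma voom, and 1 of 13 genes of exon junction and export complexes fell, Casc3 (-0.69). Among 24 regulators known for tissue-specific splicing and paraspeckles, Rbm10 (-1.13) and Sfpq (-0.76) fell. Mbnl1, a regulator of splicing in muscle and blood cells, was at 686, 638 and 488 CPM in the mIDH1 libraries, against 424, 312 and 271 CPM in the wtIDH1 libraries, and it rose (log2 fold change 0.85 ± 0.20 SE, adjusted p = 0.024). Matr3, a nuclear matrix protein, rose as well (0.68, adjusted p = 0.030). With a library left out Mbnl1 passed in 2 and Matr3 in 1 of 6 fits, with adjusted p up to 0.133 and 0.148. Of the other splicing genes that fell, Rsrc2 alone passed with any 1 library left out. The number of these 168 genes that fell was 1 without wtIDH1 replicate 2, 2 without wtIDH1 replicate 3 and 6 without mIDH1 replicate 2, and 8 when libraries were scaled by their totals or upper quartiles.

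**Figure D4:**
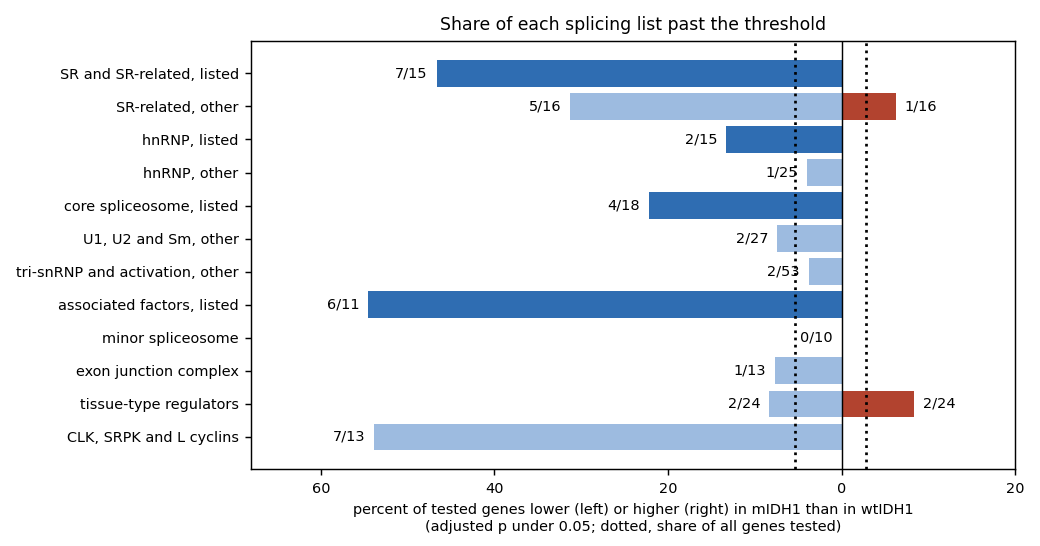
Share of the tested genes of each splicing list that were lower (left) or higher (right) in mIDH1 than in wtIDH1 at an adjusted p under 0.05 by edgeR, with counts at the bars. Dark bars are the described members, light bars other genes of the pathway, and dotted lines the shares of all 12950 genes tested, 5.39% lower and 2.78% higher. Among the 6221 genes at or above the lowest member level 10.4% were lower, a share that is not drawn.

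Of 13 genes for the kinases of SR proteins and their cyclins, 7 fell and 0 rose. These 7 are 53.8% of the list, against 5.39% of all genes tested and 10.4% of the 6221 at or above the lowest member level. On the higher side, DESeq2 and limma voom called 0, and 0 had an unadjusted p under 0.05. Log2 fold changes were positive in 3 of the 13, up to 1.54, and in 1 gene every mIDH1 library lay above every wtIDH1 library. Ccnl2, which encodes cyclin L2, a partner of CDK11 in nuclear speckles, was at 45.3, 46.7 and 44.2 CPM in the mIDH1 libraries, against 177, 207 and 196 CPM in the wtIDH1 libraries (log2 fold change -2.09 ± 0.17 SE, adjusted p = 4.3e-05). The log2 fold changes were -1.70 for Ccnl1, -1.52 for Cdk11b, -1.33 for Clk3, -1.09 for Clk2, -0.93 for Clk1 and -0.76 for Clk4, whereas Srpk1 (-0.69, adjusted p = 0.062) and Srpk2 (0.10, adjusted p = 0.868) did not pass. The count of genes that fell in this list was 4 without wtIDH1 replicate 3, and Ccnl1, Ccnl2, Cdk11b and Clk3 passed with any 1 library left out.

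Other transcripts of the nucleus and of the stress response moved beside the splicing genes. The nuclear noncoding RNA Malat1, which resides in speckles, was at 3779.7, 4491 and 3550.2 CPM in the mIDH1 libraries, against 7807, 8477 and 11750.4 CPM in the wtIDH1 libraries (log2 fold change -1.25 ± 0.19 SE, adjusted p = 0.0023). Neat1, the scaffold of paraspeckles, was at 99.4, 74.3 and 73.3 CPM in the mIDH1 libraries, against 554, 701 and 986 CPM in the wtIDH1 libraries (log2 fold change -3.18 ± 0.24 SE, adjusted p = 3.9e-05). Kcnq1ot1, another nuclear noncoding RNA, was at 207, 319.9 and 199 CPM in mIDH1 and 136, 166 and 177 CPM in wtIDH1 and did not pass (log2 fold change 0.60 ± 0.21 SE, adjusted p = 0.099). The 10 early genes that tissue dissociation can induce summed to 6761 to 9164 CPM in mIDH1 and 10295 to 14124 CPM in wtIDH1. These sums did not overlap, and edgeR called 4 of the 10 lower and DESeq2 3. By edgeR that is 40%, against 5.39% of all genes tested and 10.4% of the 6221 at or above the lowest member level. In 1 of the 10 every mIDH1 library lay above every wtIDH1 library, a pattern seen in 14% of all genes tested. Summed levels of 6 proliferation genes were 234 to 383 CPM in mIDH1 and 289 to 471 CPM in wtIDH1, which overlapped, and the ribosomal RNA precursor Rn45s took 6.11 to 8.08% of counts in mIDH1 and 3.24 to 6.56% in wtIDH1. The part of these transcripts in the lower splicing factor levels was not tested.

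The median over the 59 genes was lower in each mIDH1 library, and the classes differed. The median log2 ratio of the 59 genes to the wtIDH1 mean was -0.38, -0.47 and -0.44 in mIDH1 replicates 1, 2 and 3, and -0.06, -0.01 and 0.07 in the wtIDH1 replicates. In mIDH1 it was -0.66, -0.80 and -0.62 for SR and SR-related genes and -0.72, -0.94 and -0.75 for associated factors. For hnRNPs it was -0.19, -0.08 and -0.03 in mIDH1 and -0.07, -0.01 and 0.03 in wtIDH1. For core genes it was -0.11, -0.13 and -0.10 in mIDH1 and -0.01, -0.05 and 0.08 in wtIDH1. Of the 59 genes, mIDH1 replicates 1, 2 and 3 held the lowest value of their group in 19, 22 and 18. Individual genes differed more: Srsf5, Srsf10 and Snrnp70 each had 1 mIDH1 library apart from the others, which was replicate 3 for Srsf5 and Snrnp70 and replicate 1 for Srsf10.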

How the data were processed

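RNA of the 6 sorts was sequenced with a polyadenylated, unstranded TruSeq protocol, per the labels' protocols, so overlapping genes of opposite strands share counts. The values used are estimated counts for each gene, which the authors deposited unscaled. The submitters' processing notes name FastQC, HTSeq, Bowtie2 (2.2.1), TopHat2 (2.0.13), Cufflinks, Cuffdiff (2.1.1) and the mm10 build. The annotation, the settings and the treatment of reads shared by paralogs and pseudogenes are not stated in those sources, so members with close copies are uncertain. Between 1.31 and 1.61% of a library's values were not whole to within 1e-09, and all were rounded.

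Genes passing filterByExpr (minimum count 10, minimum total 15) were scaled by TMM and tested with edgeR 4.0.16 in R 4.3.3 (glmQLFit and glmQLFTest, group as the only term, two-sided), with Benjamini-Hochberg adjustment over all 12950 genes and a threshold of 0.05. A log2 fold change is positive where mIDH1 was higher. Its SE is an approximate standard error, the absolute log2 fold change divided by the square root of the F statistic of the test. The 16 alternatives were DESeq2 1.42.0, limma voom 3.58.1, other scalings and filters, a robust fit, equal depth, a replicate block and leaving out each library. In counts simulated for this comparison (12622 genes), 27.6% of genes changed by 1 on the log2 scale and 68.8% of those changed by 2 were recovered. The changed genes, 98 and 96, were drawn from any level, so these shares do not measure recovery among the members. Counts of replicates differed by more than counting noise (chi-square per degree of freedom 50.3 to 144), so no library was a copy of another; this does not show separate mice. Levels per kilobase used merged GENCODE vM21 exons, and promoters came from RefSeq (GRCm38.p6).

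The members and lists were chosen with earlier results of these data known. Genes named with values are 24 fixed by role, up to 6 called members of each class with the smallest p, the highest and lowest level per kilobase of each class, and up to 4 called genes of each other list. Csf3r, Sox2, Arglu1, Srsf12, Clk1, Clk2, Clk4, Srpk1, Srpk2, Luc7l3, Pnn, Snrpa and Sf3b3 were named beyond that after their values were seen. A result of 1 other list is not reported here.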

Additional observations from a re-analysis of the deposited data

How the results depend on the processing

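Across the 59 members, settings that kept all libraries gave the same direction and the same side of the threshold in 566 comparisons, lost the call in 8, gained one in 8 and turned the sign in 8. DESeq2 called 1610 genes, with 657 genes higher in mIDH1. The labels name no pairing of samples. Deviations of same-numbered libraries correlated at -0.03, 0.03 and -0.05, which with 3 libraries per group cannot exclude a pairing. A replicate block left 585 genes past the threshold, 429 genes lower and 156 genes higher, with 15 members, 1 hnRNP and 7 other splicing genes, 6 of them lower. Among the other splicing genes 8 were lower with upper quartiles and 8 with totals alone. The hnRNPs median log2 fold change was -0.026 with totals alone, and that of core proteins -0.063 with upper quartiles and -0.049 with totals alone. The median level of members was 33.2 CPM per kilobase of the longest transcript, against 22.2 over merged exons. The cause of these shifts was not tested.

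Leaving out 1 library at a time gave 334 to 1033 genes, 256 to 707 genes lower and 78 to 365 genes higher, and 12 to 21 members, 3 to 8 SR, 0 to 2 hnRNP, 1 to 16 other splicing genes (1 to 14 lower) and 4 to 7 of the kinase list. The core median ran from -0.17 to -0.12. Fewer samples entered these fits.

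Signs turned only for log2 fold changes near 0 in members that did not pass. With upper quartiles and with totals alone, Snrpa was at 0.029 and 0.043, Snrpb at 0.059 and 0.072 and Luc7l2 at 0.048 and 0.060. The Snrpb log2 fold change was 0.0027 by limma voom and 0.0063 with the replicate block. With a library left out, Srsf1 ran from -0.053 to 0.31, Hnrnpa3 from -0.12 to 0.21, Hnrnpd from -0.081 to 0.16, Hnrnpk from -0.17 to 0.021, Hnrnpl from -0.050 to 0.11, Prpf19 from -0.11 to 0.28, Sf3a1 from -0.023 to 0.13, Snrpa from -0.20 to 0.13, Snrpb from -0.11 to 0.058 and Luc7l2 from -0.066 to 0.041.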
